A study of Mus musculus with 12 samples.

Results

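The genes described here are the mouse genes for collagen alpha chains and laminin chains, chosen by symbol alone: every gene named Col, a number, a and a number, or Lam, a letter (a, b or c) and a number. Of the 23336 genes counted, 54 matched. They comprise 17 chains of the basement membrane (6 of type IV collagen and 11 of laminin), 11 chains of fibrillar collagens and 26 chains of other collagens. The rule itself reads no expression value, but it was set with earlier results of these data known. The counts come from embryonic stem cells (ESCs) of 3 lines, each in 2 states, with 2 libraries in each of the 6 groups. Of the lines, Pgk12.1 is female and wild type (WT), E14 is male and wild type, and the other one is female and carries the label RlimKO, a knockout of the X-linked gene Rlim. The strain label of all 3 is C57BL/6. Undifferentiated cells were kept in medium with LIF, the cytokine that holds mouse ESCs in the pluripotent state. Differentiated cells had formed embryoid bodies, floating aggregates of ESCs, for 3 days without LIF and had then been cultured for 6 days in 7.5% oxygen. An oxygen level is listed for the differentiated groups only. Loss of LIF, embryoid body culture, time and any difference in oxygen go together between the states and cannot be told apart. The study's stated aim was to read the state of X-chromosome inactivation by setting the female lines against the male one. Each line stands for a single combination of sex and genotype, so that line, sex and genotype cannot be told apart in a comparison between lines. Whether the female WT and RlimKO lines derive from each other is not given in the sources used here.

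Collagens are trimers of alpha chains wound into a triple helix, and laminins are trimers of an alpha, a beta and a gamma chain. Basement membranes, the thin sheets under epithelia and around muscle, fat and vessels, are built on a laminin network and a type IV collagen network that are tied together by nidogen and perlecan. Fibrillar collagens (types I, II, III, V and XI and the smaller types XXIV and XXVII) pack into the banded fibres of connective tissue, skin, bone and cartilage. Laminin is among the first matrix proteins of the mouse embryo, and in embryoid bodies an outer layer of endoderm lays down a basement membrane containing laminin and type IV collagen.

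Some members lie beside each other in the genome (GRCm38/mm10). Col4a1 (chr8:11198423-11312826, minus strand) and Col4a2 (chr8:11312805-11449287, plus strand) are annotated head to head and overlap by 22 bases. Col4a6 (chrX:141165403-141474076, minus strand) and Col4a5 (chrX:141475385-141689234, plus strand) are head to head with 1308 bases between them, and Col4a4 and Col4a3 lie head to head 71 bases apart. Col3a1 (chr1:45311538-45349706, plus strand) and Col5a2 (chr1:45374321-45503282, minus strand) lie tail to tail, 24614 bases apart. The strand of origin was not kept by the library type as described, so reads within the overlap of Col4a1 and Col4a2 cannot be assigned to either. RefSeq's promoter table for GRCm38.p6 held 40 of the 54 members. In the 250 bases before the start, searched on both strands with each motif counted on its own even where motifs share bases, GGGCGG (a GC box) was found in 23 of the 40 (57.5%, against 35.4% of all 27025 genes in the table). CCAAT was found in 14 (35.0%, against 37.5%) and TATAAA in 5 (12.5%, against 14.3%). GGGCGG was present in 6 of 8 fibrillar, 5 of 10 basement membrane and 12 of 22 other collagen windows. A match of letters is no evidence that a factor binds, and no test was made. The upstream sequences below show the start regions of members that rose in all 3 lines, among them both head-to-head pairs (Col1a2, Col3a1, Col5a1, Col4a5, Col4a6, Lamb1 and the region shared by Col4a1 and Col4a2), and of Lama5, which was not called in any line. Each is written 5′ to 3′ on the gene's own strand, and the capitals mark TATAAA or CCAAT or GGGCGG (the last also as its reverse complement, CCGCCC).
Col1a2: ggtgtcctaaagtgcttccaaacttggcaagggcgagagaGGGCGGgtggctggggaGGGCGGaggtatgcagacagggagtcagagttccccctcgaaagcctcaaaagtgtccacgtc
Col3a1: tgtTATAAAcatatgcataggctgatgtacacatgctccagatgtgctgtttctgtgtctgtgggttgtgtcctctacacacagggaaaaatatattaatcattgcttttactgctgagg
Col5a1: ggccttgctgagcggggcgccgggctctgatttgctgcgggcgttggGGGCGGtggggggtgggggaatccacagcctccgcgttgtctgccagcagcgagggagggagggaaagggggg
Col4a5: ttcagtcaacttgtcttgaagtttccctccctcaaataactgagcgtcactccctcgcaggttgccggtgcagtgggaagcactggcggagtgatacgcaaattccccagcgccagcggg
Col4a6: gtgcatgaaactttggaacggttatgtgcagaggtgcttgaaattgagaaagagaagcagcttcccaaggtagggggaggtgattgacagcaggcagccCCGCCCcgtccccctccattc
Lamb1: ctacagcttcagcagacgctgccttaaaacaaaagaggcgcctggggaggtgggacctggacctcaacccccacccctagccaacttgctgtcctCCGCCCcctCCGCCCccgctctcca
Lama5: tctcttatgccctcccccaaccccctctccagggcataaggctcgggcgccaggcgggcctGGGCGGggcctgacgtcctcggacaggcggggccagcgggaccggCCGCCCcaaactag
Col4a2: cgcgCCGCCCgaggagctccCCAATttgtt
The stretch for Col1a2 is chr6:4505373-4505492 and has 2 GC boxes. It ends 126 bases before the RefSeq start, which lies inside the longer gene span annotated by GENCODE, and it overlaps no annotated exon. That for Col3a1, chr1:45311418-45311537, has a TATAAA and no GC box. Those for Col5a1 (chr2:27886305-27886424) and Col4a6 (chrX:141474077-141474196, minus strand) have 1 GC box each. The stretch for Col4a5 is chrX:141475265-141475384, ends 35 bases before the RefSeq start and holds none of the motifs. Outside it, a GGGCGG begins 30 bases before that start and a CCAAT 196 bases before it. Lamb1 (chr12:31265114-31265233, ending 60 bases before the RefSeq start) and Lama5 (chr2:180225860-180225979, minus strand) have 2 GC boxes each. The stretch of 30 bases before Col4a2, chr8:11312753-11312782, lies inside the first exon of Col4a1 and holds a CCAAT and a GC box.

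Counts assigned to genes ranged from 2011919 to 5401940 per library, and 6.36% to 67.7% of these fell on the ribosomal precursor gene Rn45s. Levels below are CPM, counts per 1000000 counts of the TMM-scaled library size, and 3 counts correspond to 0.322 to 1.75 CPM depending on the library. Rlim itself was counted in every library labelled RlimKO. In the undifferentiated ones it measured 160 and 150 CPM, below the 267 and 282 CPM of the WT female pair (log2 fold change -0.82 ± 0.15 SE, adjusted p = 0.0437). In the differentiated ones it measured 290 and 299 CPM beside 258 and 266 CPM (0.17, adjusted p = 0.654). The counts cover the whole gene and do not show which part was deleted, so the label is used here as a name only. Pairs of libraries of a group differed by a chi-square of 1.91 to 2.44 per degree of freedom, except the differentiated WT male pair, at 27.3. The second library of that pair also has a column name outside the run of numbers the remaining columns share. The markers went with the state labels: 7 of 7 pluripotency genes fell on differentiation in each line, and their summed level was 1551 to 1801 CPM in undifferentiated and 54.2 to 176 CPM in differentiated libraries.

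Undifferentiated cells made laminin but almost no fibrillar collagen transcripts, and differentiated cells held large amounts of both classes. The 17 basement membrane chains together measured 605 to 846 CPM in the 6 undifferentiated libraries and 2720 to 4338 CPM in the 6 differentiated ones. The 11 fibrillar chains together went from 19.3 to 99.9 CPM to 2955 to 11742 CPM, and the 26 other collagens from 275 to 356 CPM to 866 to 1386 CPM. No class sum overlapped between the states. In these bulk libraries a change in the number of cells of a type and a change in RNA per cell cannot be told apart.

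**Figure D1:**
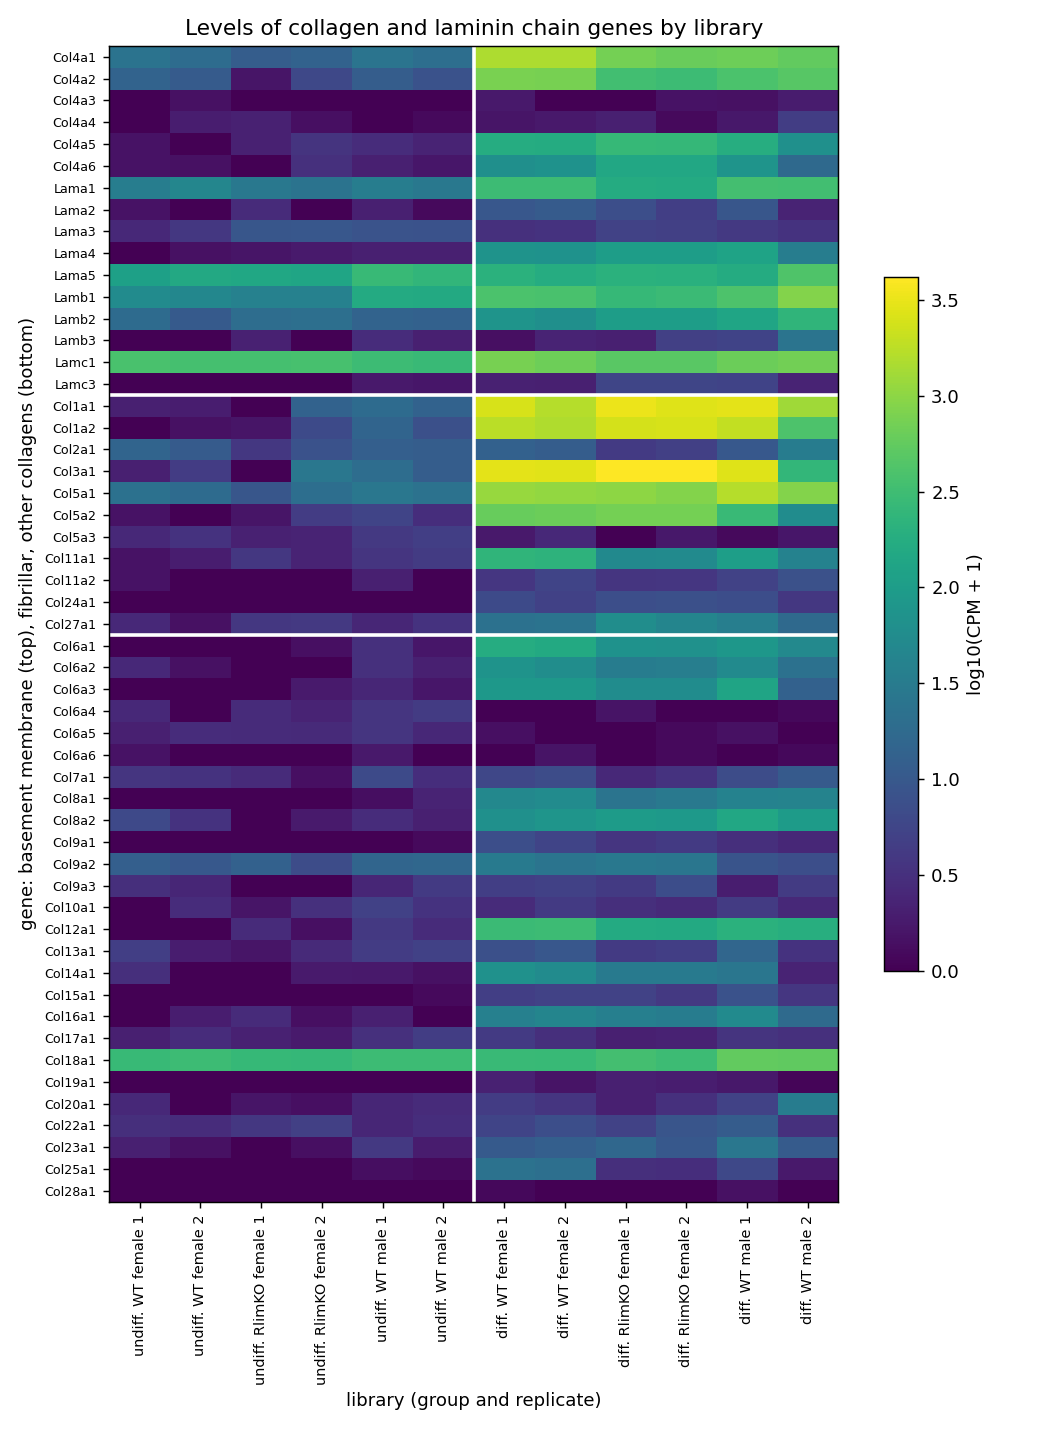
Level of collagen and laminin chain genes (rows, by class) in the 12 libraries (columns, by group), as log10 of CPM plus 1. The undifferentiated columns are dark except for a few laminin chains (Lamc1, Lama5, Lamb1, Lama1) and Col18a1, and most rows brighten in the 6 differentiated columns.

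Per transcript length (CPM per kb of the longest annotated protein-coding transcript), the order of the members changed between the states. In undifferentiated WT females Col18a1 stood first (51.9 CPM per kb), followed by Lamc1 (48.3), Lama5 (11.6) and Lamb1 (8.67). The RlimKO-labelled cells had the same 4 on top, with Lamc1 at 46.9 and Col18a1 at 46.0 CPM per kb, and in males Col18a1 was at 53.8 and Lamc1 at 38.2 CPM per kb. In differentiated WT females Col3a1 (516 CPM per kb), Col1a1 (355), Col1a2 (311), Col4a1 (224) and Col5a1 (133) stood on top. In differentiated RlimKO-labelled cells the first 3 were Col3a1 (745 CPM per kb), Col1a1 (511) and Col1a2 (464). In differentiated males Col1a1 averaged 354 CPM per kb and Col3a1 272, but Col3a1 was at 499 in one library and 44.4 in the other. The libraries were primed at the 3′ end of the RNA, so length scaling assumes an even coverage that was not checked.

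On differentiation, tested with edgeR's quasi-likelihood test and called at a Benjamini-Hochberg adjusted p below 0.05 over all 12814 genes tested, 33 members rose and 0 fell in WT females, where 26.5% of all tested genes rose and 22.2% fell (48.7% in either direction). In the RlimKO-labelled females 34 rose and 0 fell, where 26.4% of all tested genes rose and 21.6% fell (48% in either direction). In WT males 36 rose and 2 fell, where 28.7% of all tested genes rose and 25.4% fell (54% in either direction). At an unadjusted p below 0.05, 34, 37 and 39 members differed. These counts are out of the 46 members that passed the filter on low counts, and members near 0 in undifferentiated cells passed it through their differentiated libraries, so that the counts describe those members only. Of the 46, 31 rose in all 3 lines: 10 of 15 tested basement membrane chains, 9 of 10 fibrillar chains and 12 of 21 other collagens. The share of all tested genes that rose in all 3 lines is not given here, so these counts have nothing to be set against. Col9a2 and Lama2 rose in 2 lines, 6 members rose in 1, and Lama3, Lama5, Col2a1, Col7a1, Col10a1, Col13a1 and Col17a1 rose in none.

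The median fold change over tested basement membrane chains was 4.62, 2.75 and 3.33 on the log2 scale in WT females, RlimKO-labelled females and WT males. For fibrillar chains it was 7.66, 6.94 and 5.78, and for other collagens 4.21, 5.83 and 3.38, while the median over all tested genes was 0.09, 0.10 and 0.05. Some of these fits rest on groups with 0 counts. With such members set to the fold that 3 counts over the group would give, the medians in the same order of lines were 2.94, 2.66 and 3.33 for basement membrane chains, 7.005, 5.36 and 5.14 for fibrillar chains and 2.92, 2.18 and 3.38 for other collagens.

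**Figure D2:**
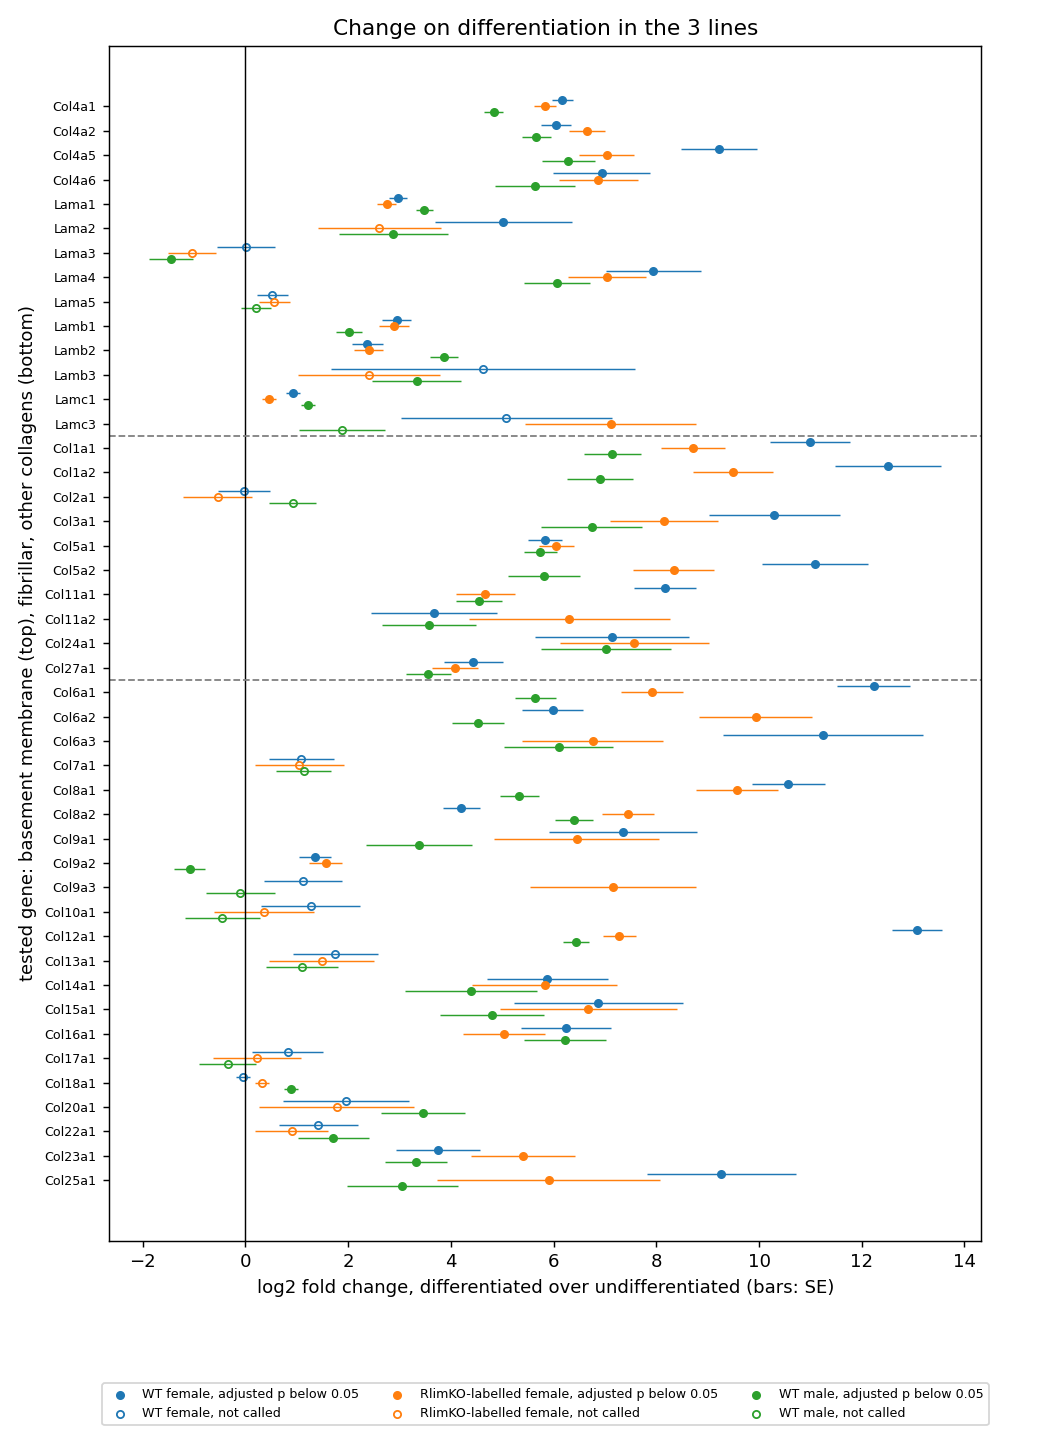
Log2 fold change on differentiation (horizontal axis) with its standard error for tested members, by class from top to bottom and in 3 colours for the lines, with filled points for an adjusted p below 0.05. Col1a1, Col1a2 and Col3a1 lie far to the right, and Lama5 and Col2a1 lie near 0. Lama3 lies near 0 in WT females but at -1.04 in RlimKO-labelled females and -1.45 in WT males. Points of genes with 0 counts in undifferentiated cells are fitted values that bound nothing.

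The 4 tested type IV collagen chains rose in every line. Col4a1, with Col4a2 the chain of the ubiquitous basement membrane network, measured 23.1 and 18.1 CPM in undifferentiated WT females and 1484 and 1478 CPM in differentiated ones. It went from 10.5 and 12.8 to 723 and 620 CPM in the RlimKO-labelled cells, and from 23.8 and 19.4 to 656 and 564 CPM in males. Every differentiated library was above every undifferentiated one, and the differentiated WT females were above the other differentiated libraries. The log2 fold changes were 6.17 ± 0.20 (SE, adjusted p = 1.78e-10), 5.83 ± 0.21 (3.57e-10) and 4.83 ± 0.19 (2.8e-10). Col4a2 went from 13.1 and 10.0 to 777 and 758 CPM, from 0.584 and 5.11 to 338 and 306 CPM, and from 10.8 and 7.05 to 395 and 481 CPM. The states did not overlap there either, with log2 fold changes of 6.05 ± 0.29, 6.65 ± 0.35 and 5.67 ± 0.28 (adjusted p = 2.6e-09, 3.26e-09 and 2.06e-09).

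The X-linked pair Col4a5 and Col4a6, chains of a network found in kidney and smooth muscle basement membranes, started near 0. Col4a5 measured 0.525 and 0 CPM in undifferentiated WT females (1 count in all) and 172 and 167 CPM in differentiated ones. This is a count ratio of 680 (95% interval 122 to 26890), with an adjusted p of 2.3e-07. In the RlimKO-labelled cells it went from 1.17 and 2.56 to 269 and 255 CPM (log2 fold change 7.03 ± 0.54, adjusted p = 1.27e-07). In males it went from 1.86 and 1.32 to 181 and 65.5 CPM (6.29 ± 0.52, 1.85e-07), and the 2 differentiated male libraries were far apart. Col4a6 measured at most 2.13 CPM in any undifferentiated library. It reached 62.5 and 68.1 CPM in differentiated WT females (count ratio 130, interval 35.8 to 1075), 146 and 148 CPM in RlimKO-labelled cells (log2 fold change 6.87 ± 0.77) and 72.8 and 16.4 CPM in males (5.64 ± 0.78). Its adjusted p was 2.98e-05, 5.32e-06 and 2.8e-05 in the 3 lines. Unlike Col4a1, both chains were highest in the differentiated RlimKO-labelled libraries, although their difference from WT females was not called.

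Among the laminin alpha chains, Lama1 (chr17:67697259-67822647), the chain of the early embryo's laminin, rose and Lama5 (chr2:180176373-180225859), the chain most widespread in later basement membranes, was not called. Lama1 went from 33.6 and 44.3 to 307 and 307 CPM in WT females, from 26.9 and 22.6 to 169 and 162 CPM in RlimKO-labelled cells and from 33.1 and 27.1 to 340 and 330 CPM in males. Its log2 fold changes were 2.97 ± 0.17, 2.75 ± 0.18 and 3.49 ± 0.17 (adjusted p = 1.1e-08, 2.99e-08 and 1.7e-09). The states did not overlap in any line, and the RlimKO-labelled cells had the lowest differentiated level.

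Lama5 measured 111 and 153 CPM in undifferentiated WT females against 207 and 175 CPM after differentiation, 141 and 133 against 206 and 199 CPM in RlimKO-labelled cells, and 277 and 242 against 170 and 425 CPM in males. The states did not overlap in the female lines, and they overlapped in males. The log2 fold changes were 0.53 ± 0.30, 0.56 ± 0.30 and 0.20 ± 0.29 (adjusted p = 0.162, 0.141 and 0.569). The male value turned with the library: it was -0.55 without differentiated male replicate 2 and 0.78 without replicate 1, each past the threshold. Both female calls also appeared when either of these male libraries was left out of the shared estimate of spread, when no filter was applied and when only the compared libraries were fitted.

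Lama4, a chain of vessel and mesenchymal laminins, was at most 1.11 CPM in undifferentiated libraries. It reached 71.6 and 68.1 CPM in differentiated WT females (count ratio 281, interval 50.2 to 11103), 101 and 103 CPM in RlimKO-labelled cells (ratio 139, interval 47.2 to 674) and 123 and 33.0 CPM in males (log2 fold change 6.07 ± 0.64, adjusted p = 2.13e-06). Lama2, the alpha chain of muscle laminin, stayed low, at 8.68 and 9.80 CPM in differentiated WT females, 6.38 and 3.66 CPM in RlimKO-labelled cells and 8.27 and 1.29 CPM in males. It rose in WT females (count ratio 36.7, interval 6.40 to 1466, adjusted p = 0.00604) and males (log2 fold change 2.88 ± 1.06, adjusted p = 0.0331) but was not called in RlimKO-labelled cells (count ratio 6.11, interval 1.88 to 31.4, adjusted p = 0.0848). The WT female call was lost without undifferentiated replicate 2 (adjusted p = 0.0735), and the male call without undifferentiated replicate 2 or differentiated replicate 1 (1.21 on the log2 scale without the last, adjusted p = 0.258). Lama3, the epithelial alpha chain of hemidesmosome laminin, fell in males by 1.45 on the log2 scale (SE 0.43, adjusted p = 0.0112), from 7.43 and 7.05 to 2.98 and 2.36 CPM. That call was lost without either undifferentiated male library, without differentiated male replicate 2 and with DESeq2 (largest adjusted p 0.0837). Lama3 gave 0.02 ± 0.57 in WT females and -1.04 ± 0.46 in RlimKO-labelled cells (adjusted p = 0.993 and 0.0769).

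Of the beta and gamma chains, Lamb1 and Lamc1 started above Lama1 in each line, while Lamb2, Lamb3 and Lamc3 started below it. Lamb1 (chr12:31265234-31329644), the beta chain of embryonic laminins, went from 54.1 and 46.2 to 393 and 379 CPM in WT females and from 37.9 and 38.4 to 269 and 295 CPM in RlimKO-labelled cells. In males it went from 163 and 158 to 402 and 893 CPM. The undifferentiated males were about the same as each other and above both female lines, and the states did not overlap. The log2 fold changes were 2.94 ± 0.29, 2.89 ± 0.29 and 2.01 ± 0.26 (adjusted p = 1.31e-06, 2.05e-06 and 1.46e-05), and the male value was 1.38 without differentiated replicate 2 and 2.54 without replicate 1.

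Lamb2, the beta chain of neuromuscular and kidney basement membranes, was at 9.53 to 20.03 CPM in undifferentiated libraries. It reached 74.6 and 63.3 CPM in the WT female pair, 102 and 103 CPM in RlimKO-labelled cells and 132 and 232 CPM in males, with log2 fold changes of 2.37 ± 0.30, 2.40 ± 0.28 and 3.87 ± 0.28 (adjusted p = 1.54e-05, 8.6e-06 and 5.21e-08). Lamb3, the beta chain of epithelial laminin, was called in males only among the lines, from 1.86 and 1.10 to 4.36 and 24.0 CPM (3.33 ± 0.86, adjusted p = 0.0051). That call was lost without differentiated male replicate 2 (1.67, adjusted p = 0.0583) or undifferentiated male replicate 2 (0.0679). Lamb3 had 0 counts in undifferentiated WT females and 2 in RlimKO-labelled ones, with adjusted p of 0.212 and 0.17.

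Lamc1 (chr1:153218922-153332786), the gamma chain of most laminins and the highest member by CPM in the undifferentiated female lines, measured 375 and 360 CPM in the WT female pair, 352 and 363 CPM in RlimKO-labelled cells and 298 and 285 CPM in males. After differentiation it was at 748 and 657, 487 and 499, and 637 and 716 CPM. All differentiated libraries lay above all undifferentiated ones, but the step was small: 0.93 ± 0.14, 0.46 ± 0.14 and 1.22 ± 0.14 on the log2 scale (adjusted p = 5.91e-05, 0.0118 and 3.83e-06). The RlimKO-labelled call was lost when any of 7 of the 12 libraries was left out (largest adjusted p 0.179) and with no filter (0.101).

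Lamc3, a gamma chain of nerve and skin, stayed under 5 CPM in every library. It had 0 counts in the undifferentiated RlimKO-labelled libraries and 4.78 and 4.63 CPM in the differentiated ones, at least 6.33-fold higher (adjusted p = 0.00355, floor of 3 counts over the group). It was not called in WT females (0 counts before, 10 after, adjusted p = 0.057) or males (1.88 ± 0.84, adjusted p = 0.0754).

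**Figure D3:**
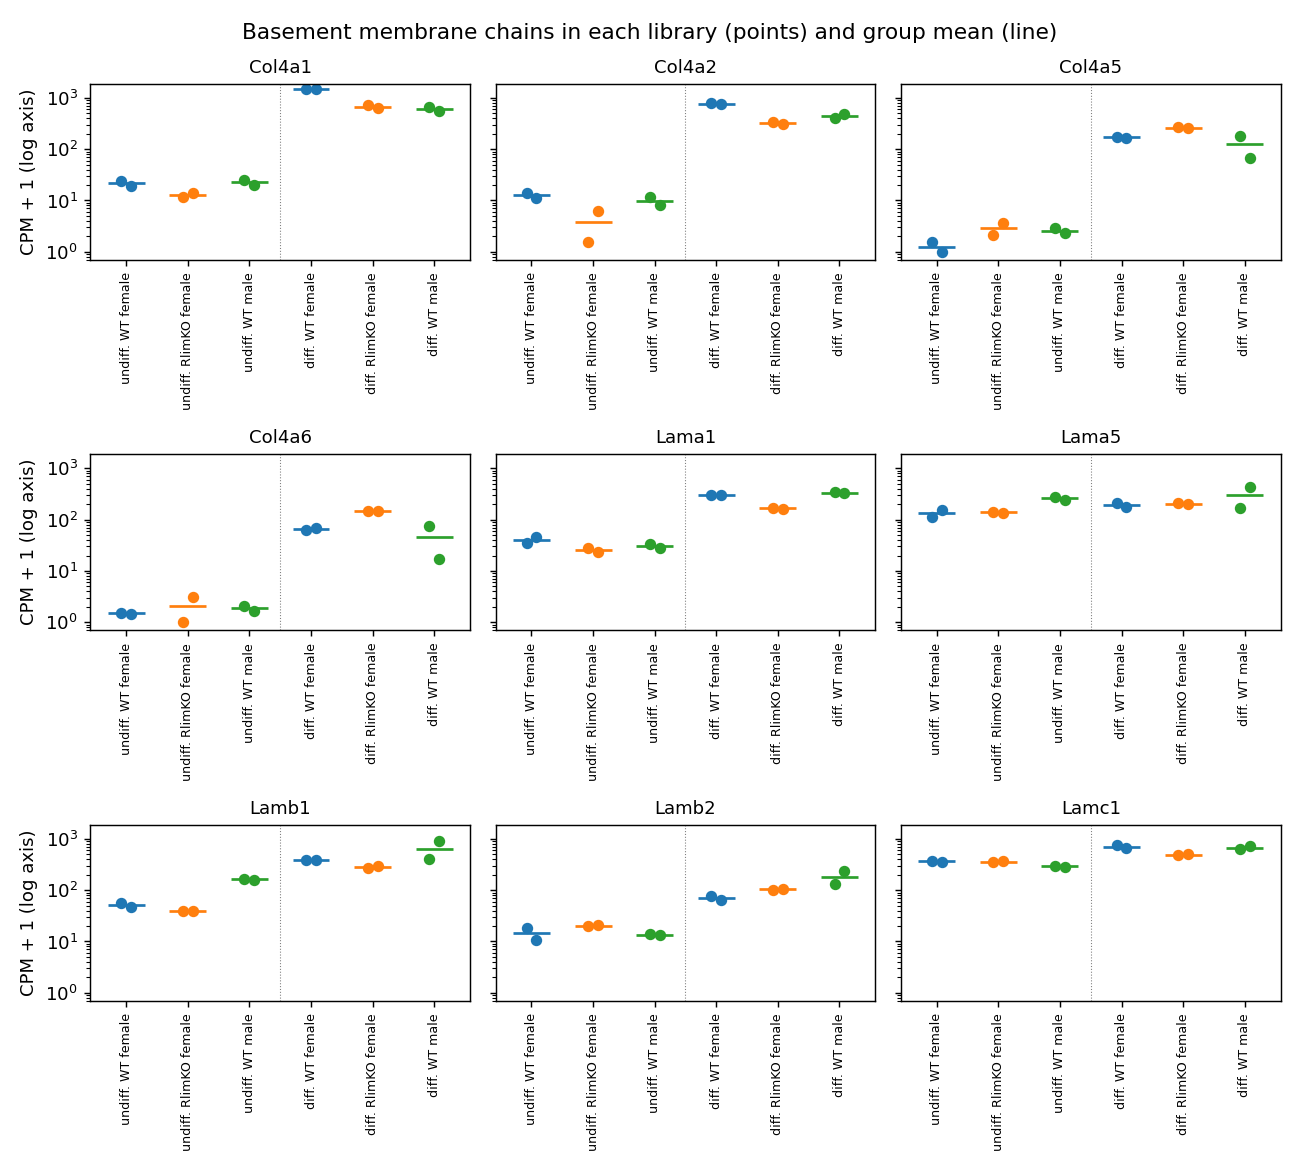
CPM plus 1 on a log axis for 9 basement membrane chains in the 6 groups, with a point for each library and a line at the group mean. Col4a1, Col4a2, Col4a5 and Col4a6 climb from low levels, and Lamb2 rises from levels near those of Col4a1. Lama1 and Lamb1 rise from higher levels, and Lama5 and Lamc1 move little.

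Types I and III collagen, the main fibres of loose connective tissue and skin, rose from low levels to the highest of any member in the female lines. Col1a1 (chr11:94936224-94953042) measured 1.05 and 0.953 CPM in undifferentiated WT females, 0 and 12.8 CPM in RlimKO-labelled cells and 17.5 and 12.8 CPM in males. After differentiation it measured 2551 and 1663, 3286 and 2770, and 2935 and 1258 CPM. The states were far apart in each line, and the differentiated RlimKO-labelled libraries were above the WT female ones. The log2 fold changes were 10.99 ± 0.78, 8.71 ± 0.63 and 7.14 ± 0.56 (adjusted p = 7.1e-08, 6.42e-08 and 1.03e-07). Col1a2 (chr6:4504814-4541544), its partner in the type I trimer, had 1 count in undifferentiated WT females and 1781 and 1543 CPM after (count ratio 6721, interval 1206 to 265483). It went from 0.584 and 5.54 to 2470 and 2497 CPM in RlimKO-labelled cells (9.50 ± 0.77, adjusted p = 2.34e-07) and from 13.7 and 6.61 to 1910 and 411 CPM in males (6.91 ± 0.65, 6.51e-07).

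Col3a1, the type III chain, measured 1.05 and 3.34 CPM before and 2912 and 2826 CPM after in WT females. It measured 0 and 26.4 CPM before and 4124 and 4164 CPM after in RlimKO-labelled cells, and 18.6 and 10.6 CPM before in males. In differentiated males one library had 2776 CPM and the other 247 CPM, an 11.2-fold gap. All 3 changes were larger than these gaps, at 10.30 ± 1.27, 8.15 ± 1.05 and 6.74 ± 0.98 on the log2 scale (adjusted p = 1.27e-05, 1.96e-05 and 4.67e-05). The male value was 7.71 without differentiated replicate 2 and 4.22 without replicate 1.

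The undifferentiated RlimKO-labelled pair differed in the same genes: replicate 1 had 0 counts of Col1a1 and of Col3a1, and replicate 2 had 30 and 62. The 4 fibrillar chains with enough counts in that pair were all higher in replicate 2, with a median log2 difference of 3.35. The summed mesenchyme markers were 11.7 CPM in replicate 1 and 32.8 CPM in replicate 2. Their part in that difference was not tested. Without replicate 1 the RlimKO-labelled changes of Col1a1 and Col3a1 were 7.77 and 7.18 on the log2 scale. Without replicate 2 both genes had 0 counts before differentiation, so that their fitted changes bound nothing.

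Type V collagen, which sits inside type I fibres and sets their width, was unevenly split at the start. Col5a1 (chr2:27886425-28039514) was already present at 21.5 and 17.6 CPM in undifferentiated WT females, 8.17 and 19.2 CPM in RlimKO-labelled cells and 26.0 and 21.8 CPM in males. It reached 1165 and 1066, 1013 and 888, and 1649 and 884 CPM, with log2 fold changes of 5.83 ± 0.34, 6.06 ± 0.35 and 5.74 ± 0.32 (adjusted p = 1.09e-08, 7.88e-09 and 5.01e-09). Col5a2 began at 4.46 CPM or less in every library. It reached 600 and 637 CPM in WT females (1 count before, ratio 2464, interval 442 to 97332), 727 and 718 CPM in RlimKO-labelled cells (8.34 ± 0.78, adjusted p = 9.27e-07) and 284 and 56.6 CPM in males (5.82 ± 0.70, 7.43e-06).

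Of the cartilage fibril chains, Col11a1 rose and Col2a1 did not pass the test in any line. Col11a1, a chain of type XI fibrils, was at 0.525 to 3.31 CPM before. It reached 232 and 221 CPM in WT females (3 counts before, ratio 303, interval 104 to 1472), 50.5 and 52.2 CPM in RlimKO-labelled cells (4.67 ± 0.57, adjusted p = 1.24e-05) and 107 and 38.7 CPM in males (4.55 ± 0.46, 1.28e-06). The WT females had the highest differentiated level. Col2a1, the main chain of cartilage fibres, measured 13.7 and 10.0 CPM before and 12.4 and 10.6 CPM after in WT females, 2.92 and 7.25 against 3.19 and 3.90 CPM in RlimKO-labelled cells, and 11.5 and 10.8 against 8.95 and 32.0 CPM in males. The states overlapped in every line, and the changes were -0.03 ± 0.51, -0.54 ± 0.67 and 0.92 ± 0.46 (adjusted p = 0.97, 0.532 and 0.103). In males the value was -0.25 without differentiated replicate 2 and 1.59, past the threshold, without replicate 1. Acan, a defining cartilage proteoglycan, was at 0 to 0.752 CPM in differentiated libraries, and 2 of 4 tested cartilage markers rose and 1 fell in each line.

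The 3 remaining tested fibrillar chains were low. Col11a2 was at most 1.11 CPM before and 2.66 to 6.87 CPM after (count ratio 14.0, interval 2.34 to 572, in WT females, at least 3.62-fold in RlimKO-labelled cells and ratio 14.5, interval 4.78 to 71.6, in males), and each of its calls was lost in at least 1 fit without a library of its own line. Col24a1 had 0 counts in all 6 undifferentiated libraries and 2.90 to 6.58 CPM after, at least 6.49-fold, 8.82-fold and 9.52-fold higher in WT females, RlimKO-labelled cells and males (adjusted p = 0.00211, 0.00116 and 6.08e-04). Col27a1 was at 0.477 to 2.98 CPM before and 16.2 to 59.0 CPM after, with log2 fold changes of 4.43 ± 0.57, 4.08 ± 0.45 and 3.56 ± 0.44.

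**Figure D4:**
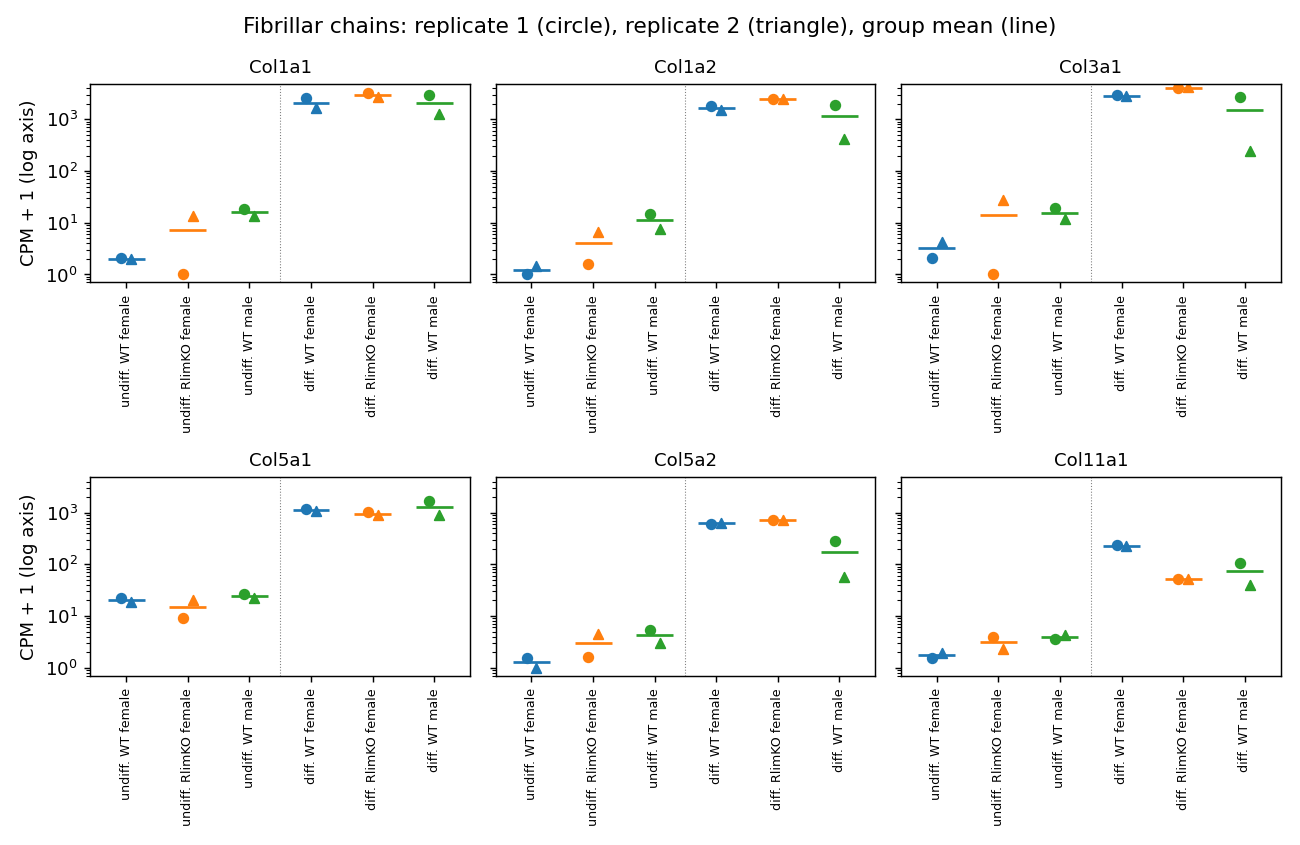
CPM plus 1 on a log axis for 6 fibrillar chains in the 6 groups, with a circle for replicate 1, a triangle for replicate 2 and a line at the group mean. Col1a1, Col1a2, Col3a1, Col5a1 and Col5a2 rise far above their undifferentiated levels, and the 2 differentiated male symbols stand apart, most for Col3a1 (2776 and 247 CPM).

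The 4 other collagens with the smallest p were Col12a1, Col8a2, Col6a1 and Col8a1. Col12a1 (chr9:79598991-79718831), a chain that decorates the surface of fibrils, had 0 counts in undifferentiated WT females and 294 and 297 CPM after, at least 394-fold higher (adjusted p = 1.01e-09). It went from 1.75 and 0.426 to 160 and 158 CPM in RlimKO-labelled cells (7.28 ± 0.32, 2.18e-09) and from 2.97 and 1.76 to 206 and 187 CPM in males (6.44 ± 0.26, 6.45e-10). The pairs agreed closely in each differentiated group. Col6a1, of the beaded filaments next to basement membranes, was at most 2.23 CPM before. It reached 172 and 158 CPM (at least 221-fold higher), 69.6 and 66.1 CPM (count ratio 273, interval 48.7 to 10798) and 81.7 and 49.4 CPM (5.65 ± 0.40, adjusted p = 8.8e-08).

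Col8a1 and Col8a2, the chains of the short network collagen of vessels and cornea, also rose in each line. Col8a1 had 0 counts in both undifferentiated female groups. It reached 48.5 and 55.6 CPM in WT females (at least 68.8-fold higher), 23.9 and 27.8 CPM in RlimKO-labelled cells (at least 36.0-fold higher) and 39.7 and 40.1 CPM in males (5.33 ± 0.38, adjusted p = 1.53e-07). Col8a2 went from 5.25 and 2.38 to 64.1 and 76.1 CPM (4.21 ± 0.36, adjusted p = 4.45e-07), from 0 and 0.852 to 96.2 and 88.8 CPM (2 counts before, ratio 185, interval 50.9 to 1530) and from 1.86 and 1.10 to 147 and 95.4 CPM (6.40 ± 0.38, 7.81e-09).

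A further 13 other collagens were called in at least 1 line. Among those with more than 3 counts before differentiation, the log2 increase ran from 1.36 (Col9a2) to 5.99 (Col6a2) in WT females (3 genes). It ran from 1.56 (Col9a2) to 5.03 (Col16a1) in RlimKO-labelled cells (2 genes) and from 0.88 (Col18a1) to 6.10 (Col6a3) in males (7 genes). For those with 1 to 3 counts before, the count ratios were 13.9 and 80.1 in WT females (2 genes). They ran from 44.8 to 115 in RlimKO-labelled cells (3 genes) and from 7.67 to 68.2 in males (4 genes). Those at 0 counts before were at least 5.28-fold to 110.9-fold higher in WT females (4 genes) and at least 2.71-fold to 45.9-fold higher in RlimKO-labelled cells (5 genes). Col18a1, the endostatin-bearing collagen of basement membranes, kept a high level throughout. It measured 275 and 306 CPM before and 287 and 276 CPM after in WT females, 263 and 252 against 343 and 302 CPM in RlimKO-labelled cells, and 300 and 302 against 560 and 551 CPM in males. It rose in males (0.88 ± 0.13, adjusted p = 5.91e-05) and was not called in WT females (-0.05 ± 0.13, 0.795) or RlimKO-labelled cells (0.32 ± 0.13, 0.0596).

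Col9a2, a chain of the collagen that coats cartilage fibrils, moved in opposite directions. It rose in WT females from 11.6 and 9.06 to 29.0 and 23.8 CPM (1.36 ± 0.31, adjusted p = 0.00228) and in RlimKO-labelled cells from 12.3 and 5.97 to 27.1 and 25.4 CPM (1.56 ± 0.33, 0.00123). In males it fell from 14.1 and 15.0 to 7.58 and 6.34 CPM (-1.08 ± 0.30, 0.00717). The RlimKO-labelled call was lost without undifferentiated replicate 2 (adjusted p = 0.0522) and the male one without undifferentiated replicate 2 (0.0536). Calls of other collagens that were lost without single libraries were these: Col22a1 in males was lost in 11 of the 12 fits without a library, Col25a1 in RlimKO-labelled cells in 8, Col20a1 in males without differentiated replicate 2 (1.36, adjusted p = 0.0969), and Col14a1 in males without undifferentiated replicate 2 or differentiated replicate 1 (largest adjusted p 0.187). Col25a1 in males was lost without either undifferentiated male library or differentiated replicate 1 (largest adjusted p 0.271), and Col9a1 in males without either undifferentiated male library (0.0836). In RlimKO-labelled cells Col15a1 and Col9a1 were lost without undifferentiated replicate 2 (adjusted p = 0.0558 and 0.0518).

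The differentiated male libraries, each labelled WT male, held unlike sets of chains. Replicate 2 had less fibrillar collagen, with a median log2 difference to replicate 1 of -1.16 and 8 of 10 chains lower, and 17 of 21 other collagens were lower (median -0.73). Of 16 basement membrane chains, 8 were higher and 8 lower (median 0.06). Col3a1 differed by -3.49, Col5a2 by -2.33, Col1a2 by -2.22 and Col1a1 by -1.22. Col4a1 (-0.22), Lama1 (-0.04) and Lamc1 (0.17) were close, whereas Lamb1 (1.15), Lama5 (1.32) and Lamb3 (2.42) were higher in replicate 2. Lama4 (-1.90), Col4a5 (-1.47) and Col4a6 (-2.14) were among the basement membrane chains lower in replicate 2. Markers differed too: the 11 mesenchyme markers summed to 4163 CPM in replicate 1 and 2831 CPM in replicate 2, with Lum at 93.4 and 3.22 CPM and Dcn at 42.0 and 2.04 CPM. The 7 endothelium and blood markers summed to 496 and 68.2 CPM, the 4 epithelial markers to 405 and 931 CPM, and the 11 primitive and visceral endoderm markers to 485 and 616 CPM. The 7 pluripotency markers summed to 54.2 and 163 CPM, the 5 cardiac markers to 99.0 and 192 CPM. The 5 neuroectoderm markers summed to 82.7 and 46.3 CPM, the 6 cartilage markers to 45.0 and 19.1 CPM and the 6 parietal endoderm markers to 1203 and 1414 CPM. The part of these cell types in the difference was not tested. With either male library left out 36 members rose and 4 fell, and 35 of the 38 male calls were kept without replicate 2 and 34 without replicate 1. The median change of the fibrillar chains tested in each fit was 6.19 without replicate 2 and 4.22 without replicate 1. The filter was applied anew in these fits, so the members tested, here and in the counts just given, need not be those of the main fit. The shares of all tested genes called in these fits are not given here.

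**Figure D5:**
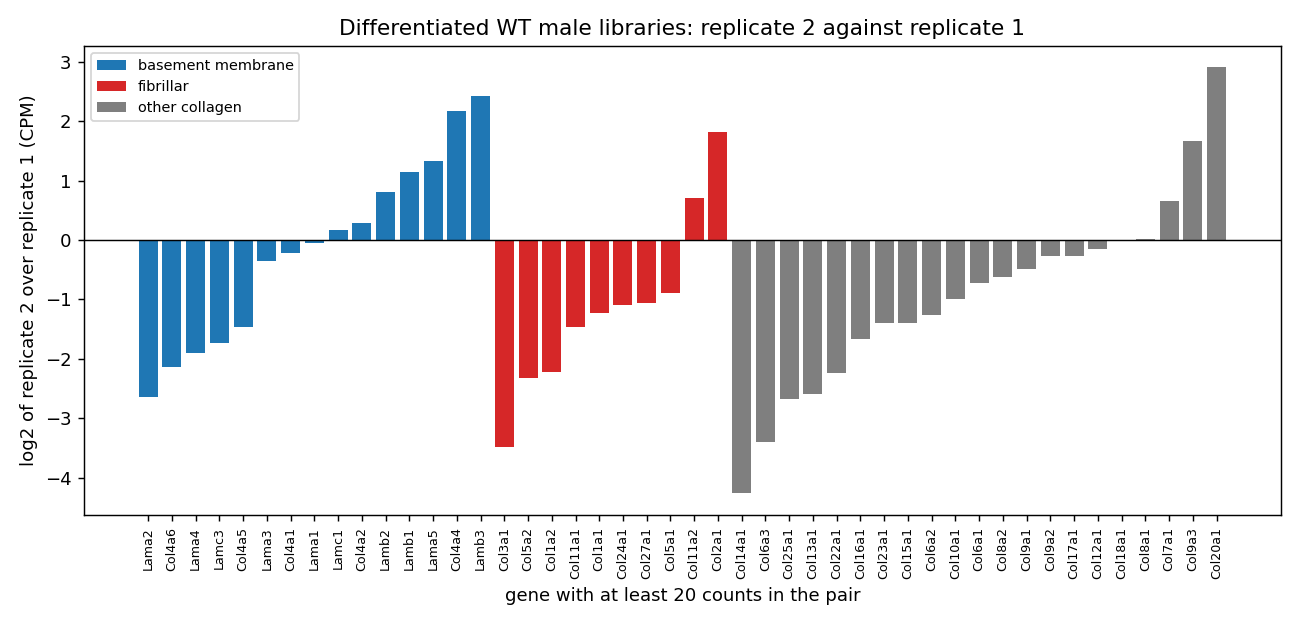
Log2 difference between the 2 differentiated WT male libraries (replicate 2 minus replicate 1) for members with at least 20 counts in the pair, by class. Fibrillar chains lie mostly below 0 (median -1.16), with Col3a1 at -3.49, while basement membrane chains lie on both sides.

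Chains of 1 network or trimer, and alternative laminin chains of the same kind, were set against each other per length within each library, which removes scaling between libraries. Col4a1 over Col4a2 was 1.86 and 1.90 in differentiated WT females, 2.08 and 1.98 in RlimKO-labelled cells, and 1.62 and 1.14 in males. Col1a1 over Col1a2 was 1.29 and 0.972, 1.20 and 1.0003, and 1.39 and 2.76. Among the differentiated pairs, the male libraries were the farthest apart in both ratios. Lama1 over Lama5 was below 1 in every undifferentiated library (0.134 to 0.361) and higher in every differentiated one, at 1.77 and 2.10 in WT females, 0.985 and 0.973 in RlimKO-labelled cells, and 2.39 and 0.927 in males. Lamb1 over Lamb2 was 12.2 and 12.7 in undifferentiated males against 1.86 to 4.72 in the undifferentiated females, and 2.56 to 5.83 in all differentiated libraries.

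Genes that work with these chains were followed as lists, and where a gene is named its change was called in each line unless stated. Of 17 basement membrane partners (the linkers nidogen and perlecan, crosslinkers and adaptors), 13 rose and 2 fell in WT females, 13 rose and 1 fell in RlimKO-labelled cells and 13 rose and 1 fell in males, with medians of 2.39, 3.54 and 3.55 on the log2 scale (2.39, 2.30 and 3.55 with genes at 0 counts set to their bound) beside the medians of 0.09, 0.10 and 0.05 over all tested genes. Sparc, a collagen-binding glycoprotein, went from 45.5 to 67.2 CPM before to 860 to 1341 CPM after. Pxdn, the enzyme that crosslinks type IV collagen, rose by 3.66, 4.55 and 3.55 and the fibulin Fbln2 by 5.18, 6.72 and 4.58. Smoc1 fell in each line (-1.06, -1.62 and -1.08).

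Of 28 tested genes for collagen modification, folding, processing and crosslinking, 23, 23 and 25 rose and 2, 2 and 2 fell, with medians of 2.66, 2.25 and 2.33. Serpinh1, the collagen chaperone of the endoplasmic reticulum, went from 23.4 to 47.3 CPM to 627 to 820 CPM (4.18, 4.14 and 4.62). The prolyl hydroxylase subunits P4ha1 (3.18, 3.56 and 2.89) and P4ha2 (4.20, 4.49 and 3.66), which make the helix stable, rose with it. The genes that fell in each line were Pcolce2, an enhancer of procollagen cleavage, from 109, 92 and 63 counts to 12, 2 and 1, and the procollagen protease Adamts14 (-1.36, -2.99 and -2.80).

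Of 16 tested laminin and collagen receptors, 10, 8 and 11 rose and 1 fell in each line, with medians of 2.04, 1.43 and 2.05. The shared beta subunit Itgb1 went from 106 to 212 CPM to 600 to 733 CPM (1.77, 1.89 and 2.45), the laminin receptor subunit Itga3 rose by 2.48, 2.85 and 2.29, and the collagen receptor kinase Ddr1 rose by 2.31, 3.04 and 2.16. The gene that fell was Itga6, another laminin receptor subunit (-0.75, -2.08 and -1.09). Of 19 tested partners of the fibrillar matrix, 18, 18 and 17 rose and 1, 1 and 0 fell, with medians of 5.28, 5.32 and 4.34 (5.06, 4.69 and 4.34 with genes at 0 counts at their bound). Postn, a matricellular protein of collagen-rich tissue, reached 855 to 1616 CPM (9.43, 7.89 and 7.90), Mmp2, a gelatinase, rose by 4.54, 4.19 and 4.31, and the protease inhibitor Timp3 by 4.41, 5.81 and 4.31. Timp1 fell in WT females and RlimKO-labelled cells (-1.18 and -1.06) and gave 0.41 in males, where it was not called.

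Markers of mesenchyme and endoderm, among the cell types that make these chains, mostly rose with them, while epithelial markers were split. The 11 mesenchyme markers (some of them also fibrillar matrix partners) summed to 11.7 to 34.2 CPM in undifferentiated libraries and to 2502 to 2512 CPM in WT females, 2834 to 3037 CPM in RlimKO-labelled cells and 2831 to 4163 CPM in males after differentiation, and 10, 8 and 10 of 11 rose. In males Thy1 fell (-3.51 on the log2 scale, adjusted p = 0.00246), and 0 fell in the female lines. Prrx1, a defining mesenchyme factor, was at 0 in all 6 undifferentiated libraries. The 6 parietal endoderm markers, which include Sparc, summed to 47.9 to 68.3 CPM before and 976 to 1414 CPM after, and 6 of 6 rose in each line. Most of this sum in every library was Sparc, which is also counted among the basement membrane partners. The primitive and visceral endoderm markers summed to 7.50 to 14.2 CPM before and to 428 to 432, 317 to 371 and 485 to 616 CPM after, with 9, 8 and 10 of 10 tested genes rising and Foxa2 at 0 in all undifferentiated libraries. The 4 epithelial markers summed to 329 to 480 CPM before and 335 to 931 CPM after, with 2 higher and 2 lower in each line. The 7 endothelium and blood markers summed to 41.3 to 88.0 CPM before and 68.2 to 496 CPM after. In the 3 lines 3, 5 and 5 of them rose, and 1 fell in each. The part of each cell type in the rise of the chains was not tested.

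Between undifferentiated lines few members differed. RlimKO-labelled and WT females differed in 0 of 46 (0.242% of all tested genes were called, 0.101% higher and 0.14% lower, 9 members had an unadjusted p below 0.05, and DESeq2 called 1). The smallest p belonged to Col4a2 (-1.85 ± 0.49, adjusted p = 0.165) and Lama3 (1.88 ± 0.53, 0.202). Lama3 measured 1.58 and 2.86 CPM in WT females and 8.17 and 8.52 CPM in RlimKO-labelled cells. WT females had 3 members lower than males, and 0 higher, where 6.63% of all tested genes were called (3.12% higher and 3.5% lower). Lamb1 was lower by 1.68 ± 0.28 on the log2 scale (adjusted p = 0.00341), 54.1 and 46.2 CPM against 163 and 158 CPM. That call was lost without either undifferentiated WT female library (largest adjusted p 0.0771). Col12a1 had 0 counts against 16, at least 2.95-fold lower (0.0145), and Col1a1 differed by -3.84 ± 1.08 (0.0472), kept in 4 of the 12 fits without a library. RlimKO-labelled cells had 4 members lower than males, the following among them, and 0 higher (10% of all tested genes were called, 4.6% higher and 5.41% lower). Lamb1 differed by -2.07 ± 0.29 (adjusted p = 7.45e-04), kept in every fit run. Col4a1 differed by -0.86 ± 0.23 (0.0328), and Col9a3 had 0 counts against 18, at least 3.37-fold lower (0.0455). Both female lines thus had less Lamb1 than the male line before differentiation.

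Between the differentiated female lines, 7 members were lower in the RlimKO-labelled cells and 0 higher, where 2.59% of all tested genes were called (1.05% higher and 1.55% lower). They were Col4a1 (-1.14 ± 0.15, adjusted p = 0.00122), Col11a1 (-2.14 ± 0.33, 0.00365), Col4a2 (-1.25 ± 0.21, 0.006), Lama1 (-0.89 ± 0.15, 0.00609), Col12a1 (-0.89 ± 0.17, 0.0109), Col6a1 (-1.28 ± 0.25, 0.0135) and Col25a1 (-3.37 ± 0.70, 0.024). In WT females against RlimKO-labelled cells, Col4a1 was at 1484 and 1478 against 723 and 620 CPM and Lama1 at 307 and 307 against 169 and 162 CPM. Col25a1, a transmembrane collagen of neurons, was at 22.3 and 19.9 against 2.13 and 1.95 CPM. Among the 7 are 3 of the main basement membrane chains and the fibrillar chain Col11a1. In RlimKO-labelled cells the summed basement membrane chains were lower (2720 to 2841 against 4160 to 4338 CPM). The summed fibrillar chains were higher (11146 to 11742 against 8000 to 9283 CPM) with none of them called higher. Chain by chain the classes were mixed: 8 of 15 tested basement membrane chains (median log2 difference 0.08) and 6 of 10 fibrillar chains (median 0.33) had a positive difference. All 7 were kept under the 7 alternatives that kept every compared library. Leaving out a compared library kept the signs and lost calls: 0 of the 7 remained called without differentiated RlimKO-labelled replicate 2, 1 (Col4a1) without its replicate 1, 2 without WT female replicate 1 and 3 without WT female replicate 2. The number of members called was 27 with only the 4 compared libraries, and it was also larger than 7 without either differentiated male library. The share of all tested genes called in those fits is not given here, so these numbers have nothing to be set against. Markers differed beside this: 3 of 4 tested cardiac markers were lower in RlimKO-labelled cells (summed 21.8 to 23.7 against 64.1 to 78.1 CPM), as were 1 of 4 neuroectoderm markers (41.4 to 43.9 against 121 to 132 CPM) and 2 of 10 endoderm markers, with 1 higher (317 to 371 against 428 to 432 CPM). Of 7 pluripotency markers 3 were lower (83.9 to 90.8 against 171 to 176 CPM). Of the mesenchyme and parietal endoderm markers, 0 of 11 and 0 of 6 were called. The part of these cell types in the lower levels was not tested.

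Differentiated WT females and males differed in 13 members (8.97% of all tested genes were called, 4.67% higher and 4.29% lower in WT females). Higher in WT females were Col4a1 (1.28 ± 0.15, adjusted p = 2.38e-04), Col9a2 (1.94 ± 0.29, 0.00121), Col6a1 (1.34 ± 0.24, 0.00446), Col11a1 (1.66 ± 0.31, 0.00537), Col25a1 (3.02 ± 0.63, 0.0123), Col5a2 (1.88 ± 0.46, 0.023), Col4a2 (0.81 ± 0.21, 0.0279) and Col12a1 (0.59 ± 0.16, 0.0381). Lower were Col18a1 (-0.98 ± 0.13, 5.82e-04), Lamb2 (-1.41 ± 0.23, 0.00248), Lamb3 (-4.11 ± 0.90, 0.0139), Col20a1 (-2.60 ± 0.72, 0.0385) and Col8a2 (-0.78 ± 0.23, 0.049). The RlimKO-labelled cells also differed from males in 13 members (11.6% of all tested genes were called, 5.65% higher and 5.97% lower). Higher were Col9a2 (1.92 ± 0.30, 0.00116), Col5a2 (2.10 ± 0.47, 0.0109), Col4a6 (1.77 ± 0.44, 0.02), Col4a5 (1.10 ± 0.31, 0.0352) and Col27a1 (1.03 ± 0.32, 0.0483). Among the 8 lower were Lama1 (-1.01 ± 0.15, 9.4e-04), Col18a1 (-0.79 ± 0.13, 0.00217), Lamb1 (-1.20 ± 0.25, 0.00804), Col2a1 (-2.52 ± 0.54, 0.00881), Col20a1 (-3.35 ± 0.83, 0.0186), Lamb2 (-0.84 ± 0.23, 0.0323) and Lamc1 (-0.46 ± 0.13, 0.0406). These 2 comparisons share the male libraries. For Col18a1 and Col9a2 the 2 male libraries were close (560 and 551 CPM, 7.58 and 6.34 CPM) and apart from all 4 female ones, whereas for Lamb3, Col20a1, Col2a1 and Col5a2 the male pair differed several-fold. Without differentiated male replicate 2, 12 of 13 WT female calls and 10 of 13 RlimKO-labelled calls remained, and 13 of 13 of each remained without replicate 1. In neither fit did the pair's own spread enter. With only the compared libraries fitted, where that pair sets the spread, 0 of 13 remained in either comparison. Most of the WT female calls were also lost without either differentiated WT female library. Most of the RlimKO-labelled calls were lost without differentiated RlimKO-labelled replicate 2. Markers differed beside these members. In WT females against males, 3 of 7 pluripotency markers (171 to 176 against 54.2 to 163 CPM) and 1 of 4 neuroectoderm markers were higher, while 2 of 4 epithelial markers (335 to 343 against 405 to 931 CPM), 1 of 4 cardiac and 1 of 11 mesenchyme markers were lower, and of 10 endoderm markers 1 was higher and 2 lower. In RlimKO-labelled cells against males, 4 of 4 cardiac markers (21.8 to 23.7 against 99.0 to 192 CPM), 4 of 10 endoderm markers (317 to 371 against 485 to 616 CPM), 2 of 11 mesenchyme markers and 1 of 4 epithelial markers were lower and 0 of any of these lists higher. Their part in the differences was not tested.

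The difference between lines in the change on differentiation was tested as an interaction. RlimKO-labelled and WT females differed in 0 members (0.203% of all tested genes were called, 0.0624% higher and 0.14% lower, 5 members had an unadjusted p below 0.05, and DESeq2 called 0), the smallest p being those of Col8a2 (adjusted p = 0.199, with 2 counts in undifferentiated RlimKO-labelled cells) and Col12a1 (adjusted p = 0.221, with 0 counts in undifferentiated WT females). WT females and males differed in 4 (1.39% of all tested genes were called, 0.882% higher and 0.507% lower): the changes of Col9a2 (by 2.45), Col4a1 (by 1.34) and Col12a1 (0 counts at the start) were more positive in WT females, and that of Col18a1 was less so (-0.93). RlimKO-labelled cells and males differed in 1, Col9a2 (2.61% of all tested genes were called, 1.51% higher and 1.09% lower).

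Of the 54 members, 8 did not pass the filter: Col4a3, Col4a4, Col5a3, Col6a4, Col6a5, Col6a6, Col19a1 and Col28a1. With no filter, Col6a4, Col5a3 and Col6a5 were called lower and Col4a4 higher on differentiation in males (adjusted p = 0.00526, 0.0135, 0.0346 and 0.0168), while DESeq2 called none of the 8.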

How the data were processed

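The authors' deposited table gives whole-number counts of reads per gene for 12 libraries of mouse embryonic stem cells. Per the labels' protocols, RNA was bound to beads, reverse-transcribed from a 3′ primer with template switching, amplified, tagmented and amplified again. Molecular identifiers are not described, so intervals and floors cover counting error only. TopHat2 (2.0.12), HTSeq (0.6.1p1), the mm10 build, bcl2fastq (2.16.0.10) and edgeR (3.10.0) are named in the submitters' processing notes. Annotation and strand settings are not given in the sources used here. The 5 summary lines were set aside (no feature 45.4% to 53.3%, ambiguous 0.241% to 0.926%).

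Groups were taken from the sample titles. All 12 libraries entered 1 model, fitted by edgeR 4.0.16 under R 4.3.3, with 6 group means, 6 residual degrees of freedom, TMM scaling, the default expression filter (12814 genes kept) and the quasi-likelihood F test, with Benjamini-Hochberg adjustment over all tested genes. The standard error is the log2 fold change divided by the square root of F. The smallest exact permutation p of 2 libraries against 2 is 0.33. Nothing in the labels says whether the 2 libraries of a group came from different cultures: p-values rest on the spread of these samples alone, and that spread may be technical. A group at 0 counts is set against a floor of 3 counts over the group, and a group with 1 to 3 counts gives a count ratio with a 95% interval.

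The members and gene lists were chosen with earlier results of these data known. Named are every tested basement membrane and fibrillar chain on differentiation, bar the member left out below, the 4 other collagens with the smallest p in full and the rest by range, every member called between lines (or the 2 with the smallest p), up to 4 called genes of each partner list and up to 2 defining markers of a cell type. Further genes singled out in the text (several in the male pair, and Col9a2 and Col18a1 with their levels) were picked after their values were seen. Alternatives were RLE size factors, no filter, a stricter filter, DESeq2 1.42.0, leaving out Rn45s and Lars2, a replicate block, only the libraries compared, and each library left out. Same-numbered libraries shared only a number (correlation of deviations -0.066 to 0.103). No protein table was used here. The values of 1 member are not reported here, although it stays in the counts of members.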

Additional observations from a re-analysis of the deposited data

Results flagged for a closer look

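The change on differentiation differed between WT females and WT males, by the test of the difference itself, for 4 members. For Col9a2 the difference was 2.45 ± 0.43 on the log2 scale (edgeR, adjusted p = 0.0155), with a called rise in WT females and a called fall in males. For Col4a1 it was 1.34 ± 0.26 (0.0225) and for Col18a1 -0.93 ± 0.19 (0.0256). For Col12a1 the fitted difference was 6.64 ± 1.25 (0.0211), which bounds nothing because undifferentiated WT females had 0 counts. Each of these 4 was called in 6 of the 12 fits without a library and in none with only the libraries compared.

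Between RlimKO-labelled cells and WT males the change of Col9a2 differed by 2.64 ± 0.44 (edgeR, adjusted p = 0.00909). That call was lost without undifferentiated RlimKO-labelled replicate 2, without undifferentiated male replicate 2 and with only the libraries compared.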

How the results depend on the processing

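Values past the threshold and opposite in sign to the value with all libraries came only from leaving out a differentiated male library, for 9 results not called with all libraries. Over the fits without a library, Lama5 on differentiation in males ran from -0.55 to 0.78. Differentiated WT females against males gave -0.91 to 1.70 for Col13a1, -0.93 to 1.33 for Col22a1, -0.56 to 0.36 for Col5a1, -0.81 to 1.11 for Lama4 and -0.64 to 2.78 for Col6a3, and RlimKO-labelled cells against males gave -0.69 to 0.97 for Col16a1, -0.65 to 0.62 for Col6a2 and -1.21 to 2.19 for Col6a3. Members called on differentiation (33, 34 and 38 in WT females, RlimKO-labelled cells and WT males) ranged over 32 to 38, 28 to 39 and 29 to 40 when each library was left out. Leaving out a library gave 0 to 5 between undifferentiated females, 0 to 10 and 1 to 10 for undifferentiated WT and RlimKO-labelled females against males, 0 to 24 between differentiated females, 5 to 32 and 2 to 30 for differentiated WT and RlimKO-labelled females against males, and 0 to 3, 0 to 18 and 0 to 15 for the differences between changes (RlimKO-labelled against WT female, WT female against male, RlimKO-labelled against male). The high ends of the comparisons between lines came without a differentiated male library. The shares of all tested genes called are not given for these alternatives, so their member counts have nothing to be set against. With no filter the counts were 4, 7 and 9 for the undifferentiated comparisons (females, WT female against male, RlimKO-labelled against male), 14 and 21 for differentiated RlimKO-labelled cells against WT females and males, and 4, 13 and 9 for the differences between changes. With only the libraries compared they were 7 for undifferentiated WT females against males, 27 between differentiated females, 0 and 0 for differentiated females against males, and 4, 0 and 0 for the differences between changes. DESeq2 called 1 between undifferentiated females. The difference between changes of RlimKO-labelled cells and males had 2 calls with RLE factors, 3 with the stricter filter, 4 with DESeq2 and 2 without Rn45s and Lars2. The cause was not tested. With the replicate block the calls were 33, 35 and 37 on differentiation, 0, 3 and 4 between undifferentiated lines, 8, 13 and 13 between differentiated lines, and 0, 4 and 1 for the differences between changes, so pairing by number changed none of these counts by over 1.5 times. Over all tested genes, leaving out Rn45s and Lars2 moved the share of higher calls from 47.1% to 57.9% (undifferentiated WT female against male), from 45.9% to 57.7% (undifferentiated RlimKO-labelled against male), and for the changes against males from 63.5% to 52.4% (WT female) and from 58.1% to 40.3% (RlimKO-labelled), the last being 46.5% with RLE factors. Depth limits the lowest members: 3 counts were 0.322 to 1.75 CPM.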
